A study of Mus musculus with 12 samples.

Results

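The question examined here was which gene functions of the mouse aorta responded more, or less, to BAPN + AngII challenge under the smSocs3-KO label than in WT mice. For each gene, the change from before challenge to day 3 on the arrays labelled smSocs3-KO was set against the same change on the WT arrays. The difference of these 2 changes is the genotype by challenge interaction, which is positive where the response was higher under the smSocs3-KO label and negative where it was lower. All 12 of the 12 one-colour microarrays of the series entered each value, 3 from each group. The 4 groups were WT before challenge, WT at day 3, smSocs3-KO before challenge and smSocs3-KO at day 3, all from male mice of mixed background (labelled 129S5/SvEvBrd, C57BL6 and SJL). Mice of every group were homozygous for the floxed Socs3 allele. Those labelled smSocs3-KO also carried SM22-Cre, and the WT mice were their littermates without it. The challenge lasted 3 days and was given by minipump, as 1000 ng/kg/min of AngII, a hormone that raises blood pressure, together with 150 mg/kg/day of BAPN, which blocks the crosslinking of collagen and elastin. Mice before challenge had received neither. The SM22 promoter drives Cre in smooth muscle, whereas the RNA was that of the whole aortic wall, so the arrays also measured cells in which Socs3 was not meant to be deleted.

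Socs3 encodes a feedback inhibitor of the receptor gp130. Cytokines of the Il6 family bind their receptor and gp130, Janus kinases then phosphorylate Stat3, and Stat3 switches on target genes that include acute phase proteins and Socs3 itself. Socs3 protein shuts this signal off again. In the aorta, angiotensin II and damage to the wall are known to bring about cytokine release, entry of macrophages and neutrophils, proliferation of SMCs and adventitial cells, and synthesis of matrix. The genes were therefore read by function, in 16 lists of functions and 10 lists of cell type markers, which together hold 1078 entries, 960 of them measured.

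Promoter sequences of 4 genes from the functions described below are shown first. Socs3 was the gene targeted for deletion and is a target of Stat3, Ccnb1 and Plk1 stood for mitosis, and Per1 for the circadian clock. The stretch is the 250 bases before the RefSeq start of the gene (GRCm38.p6), written 5′ to 3′ on the strand of the gene. These are Socs3 at chr11:117969367-117969616 (minus strand), Ccnb1 at chr13:100786487-100786736 (minus), Plk1 at chr7:122159185-122159434 (plus) and the upstream start of Per1 at chr11:69098699-69098948 (plus). Capitals mark matches to TTCNNNGAA, the palindrome that Stat proteins bind, to CCAAT, which is common in promoters of mitotic genes, and to CACGTG, the E-box of the clock.
Socs3: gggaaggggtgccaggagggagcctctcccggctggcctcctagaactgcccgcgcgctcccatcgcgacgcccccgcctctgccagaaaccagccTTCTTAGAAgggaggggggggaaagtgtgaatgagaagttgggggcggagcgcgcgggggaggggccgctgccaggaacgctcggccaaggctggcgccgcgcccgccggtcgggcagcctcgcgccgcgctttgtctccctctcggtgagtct
Ccnb1: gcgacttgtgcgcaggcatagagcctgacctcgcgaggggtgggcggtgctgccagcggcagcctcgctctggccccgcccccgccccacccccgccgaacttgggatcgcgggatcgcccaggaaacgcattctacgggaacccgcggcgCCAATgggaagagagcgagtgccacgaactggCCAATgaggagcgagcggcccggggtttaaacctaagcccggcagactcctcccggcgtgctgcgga
Plk1: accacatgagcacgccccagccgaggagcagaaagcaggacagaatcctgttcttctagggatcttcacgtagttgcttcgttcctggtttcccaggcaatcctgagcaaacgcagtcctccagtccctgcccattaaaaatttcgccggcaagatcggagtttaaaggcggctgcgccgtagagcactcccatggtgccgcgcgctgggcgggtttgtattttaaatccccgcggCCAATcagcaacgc
Per1: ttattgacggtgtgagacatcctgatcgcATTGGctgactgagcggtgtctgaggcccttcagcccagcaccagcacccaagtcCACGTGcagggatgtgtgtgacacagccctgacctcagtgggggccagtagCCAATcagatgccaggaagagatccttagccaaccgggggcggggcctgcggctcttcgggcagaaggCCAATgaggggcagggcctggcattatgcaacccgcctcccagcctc
Both strands were searched, and CCAAT on the minus strand reads ATTGG. Over 32851 RefSeq windows of this length, 7.02% held TTCNNNGAA, 33.8% held CCAAT and 6.02% held CACGTG. The searched motifs did not overlap one another in these 4 windows. None of the 4 held TTTGAA, a motif of cell cycle promoters found in 16% of windows, or TTATGTAA, a site of the clock output factors found in 0.819%. The window of Dbp, an output gene of the clock, and that of the downstream start of Per1 were also searched and are not shown. Both held the Stat palindrome, and neither held the E-box of the clock. Among the windows searched, the Stat palindrome was thus not limited to Socs3, and the E-box was not found at every clock gene start. These matches describe letters in the reference and were not measured in the aortas.

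The arrays were alike in the share of spots well above background (a signal more than 13 SD of the background above it), 55.4% to 61.2%, and had no saturated spot. The lowest correlation between arrays of a group was 0.9636 under the smSocs3-KO label before challenge and 0.9637 in WT at day 3. Values below are log2 signals relative to the 75th percentile of the array. Because the level of a probe was compared only with itself, no order of genes by level was read. In tissue RNA, more cells of a type and more RNA per cell cannot be told apart. One WT array stood apart from its group. WT day 3 replicate 4 had a mitosis score (mean log2 response of the measured mitosis genes) of 1.81, against 4.32 and 4.33 in replicates 1 and 3, and results that rest on it are given with and without it. The arrays also lay on 2 slides. Slide 1 held the 6 WT arrays and smSocs3-KO replicate 1 before challenge, and slide 2 held the other 5 arrays labelled smSocs3-KO. With slide as a block, the WT response is therefore that within slide 1 and the smSocs3-KO response that within slide 2. An effect of the slide on the challenge response itself cannot be told apart from the genotype label. The block is set by smSocs3-KO replicate 1 before challenge alone, so its interactions are in effect those without this array. That array also had the lowest 75th percentile of log2 signal of all, 7.48.

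Socs3, the gene targeted for deletion, was measured by 1 probe (mm9 chromosome 11, from 117827480 to 117827539). Whether this probe lies in the floxed part of the gene was not checked, as no annotation of that build was used here. Before challenge, WT arrays had levels of 0.30, 0.32 and 0.75 (replicates 1, 2 and 3) and those of the smSocs3-KO label 0.24, 1.14 and 1.46 (replicates 1, 3 and 4). After challenge, the WT levels were 2.21, 2.30 and 0.64 (replicates 1, 3 and 4) and the smSocs3-KO levels 3.31, 2.28 and 4.13 (replicates 2, 3 and 5). The arrays labelled smSocs3-KO were thus not lower in Socs3 than those of WT at either time, and the groups overlapped at both, which is why they are referred to by their label throughout. The interaction was 1.03 (SE 0.76), the value was 0.68 with slide as a block and 0.49 without WT day 3 replicate 4, and limma's adjusted p was 0.974.

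Of 22761 genes tested, 0 (0%) had an interaction with a Benjamini-Hochberg adjusted p under 0.05 in limma, and the highest count on leaving out any 1 array was 10, without smSocs3-KO replicate 4 before challenge. At an unadjusted p under 0.05, 610 genes (2.68%) were positive and 604 (2.65%) negative. In the paper, genes were called between 2 conditions where p was under 0.01 and expression differed by more than 4-fold in either direction. With the same limits set here on the unadjusted p and the size of the interaction (above 2 or below -2 on the log2 scale), called the paper's threshold below, 47 genes (0.206%) were positive and 23 (0.101%) negative, of which 14 and 10 were well above background on all 12 arrays. The median interaction over all genes was -0.06, and 44.0% of genes were positive. The day 3 responses of the 3 arrays under one label lay entirely above those of the other in 1633 genes (7.17%) that were higher and 2764 genes (12.1%) that were lower under the smSocs3-KO label. A list is read below against these shares, and, since no single gene passed the adjusted threshold, all differences between the labels are given as values. For the responses themselves, 816 genes (3.59%) rose and 249 (1.09%) fell in WT, and 390 (1.71%) rose and 167 (0.734%) fell under the smSocs3-KO label at the adjusted threshold. These counts rested on single arrays. Genes changed in WT numbered 1065 in all, but 0 without WT replicate 1 before challenge and 3665 without WT day 3 replicate 4, and those changed under the smSocs3-KO label numbered 557, but 42 without its replicate 3 before challenge and 1900 without WT day 3 replicate 4. A gene said below to have risen or fallen did so with all 12 arrays.

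**Figure D1:**
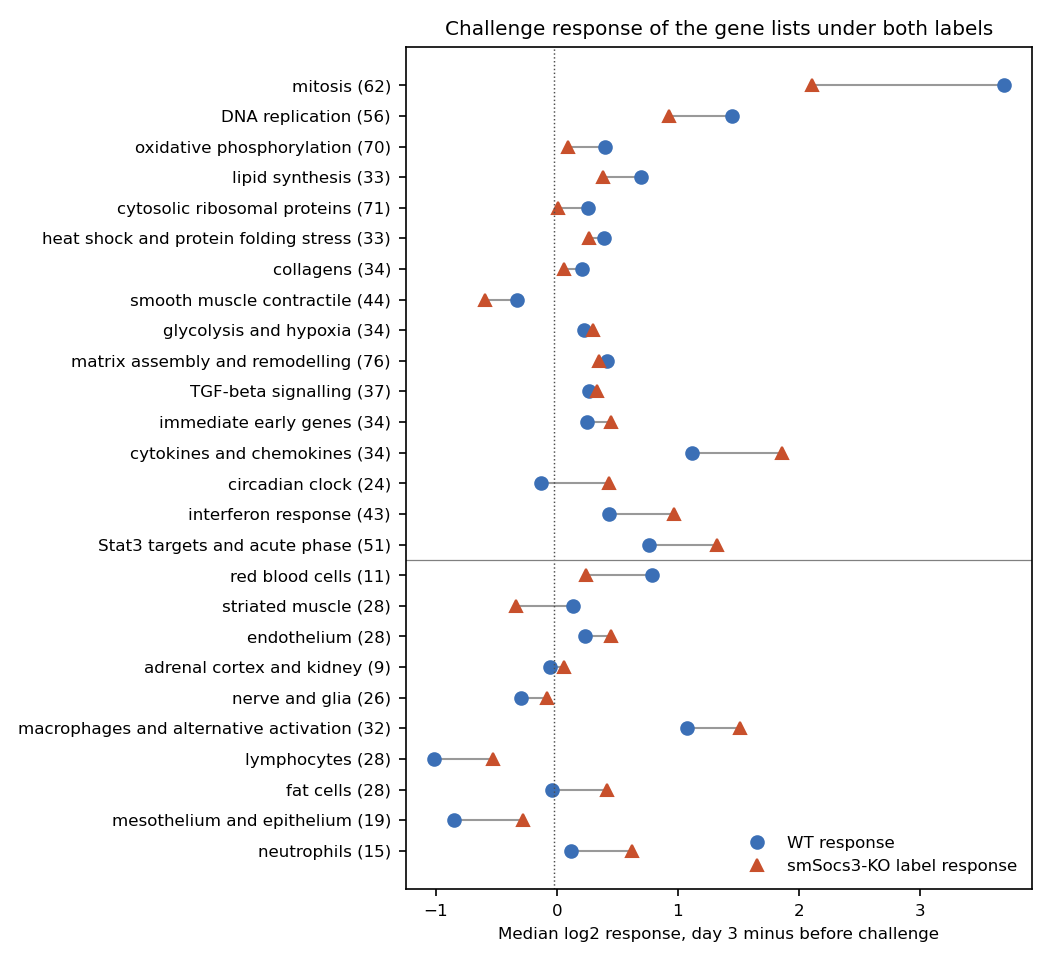
Median log2 response to the challenge (x axis, day 3 minus before challenge) over the measured members of each list, with their number in parentheses. Circles are WT and triangles the smSocs3-KO label, functions are above the line and cell type markers below it, and the dotted line is the median WT response of all genes (-0.02). Mitosis genes show the widest gap, 3.69 in WT against 2.11 under the smSocs3-KO label.

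Genes of mitosis were the function with the largest response and with the most negative interaction among the 16 function lists. All 62 measured members had a lower response under the smSocs3-KO label, with a median interaction of -1.57 against -0.06 over all genes. Their median response was 3.69 in WT and 2.11 under the smSocs3-KO label. Single arrays overlapped, however. The mean response of the members was 4.32, 4.33 and 1.81 on WT replicates 1, 3 and 4, and 2.79, 1.80 and 1.32 on smSocs3-KO replicates 2, 3 and 5, so that WT replicate 4 lay among the arrays of the other label. Members without overlap were accordingly few, 2 of 62 (3.23%) against 12.1% of all genes, while 7 of 62 (11.3%) were negative at an unadjusted p under 0.05 against 2.65%. Without WT replicate 4 the median was -2.49, and all 62 members were without overlap, when 22.1% of all genes were. At an unadjusted p under 0.05, 57 of 62 were then negative, while 2006 of all genes were called in either direction. With slide as a block the median was -1.64, and 60 of 62 were negative. The probes of 25 members fell short of the background limit on at least 1 array before challenge, and over the other 37 the median was -1.50.

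Ccnb1, the cyclin that brings Cdk1 into mitosis, shows the pattern (probe at mm9 chromosome 13, from 101548722 to 101548781). Its level before challenge was -1.72, -2.0 and -2.17 in WT and -1.88, -2.43 and -2.19 under the smSocs3-KO label. At day 3 it was 2.36, 2.44 and -0.44 in WT and 0.76, -0.61 and -1.09 under the smSocs3-KO label. The arrays before challenge lay together, and at day 3 the WT replicates 1 and 3 were above all others while replicate 4 fell among those labelled smSocs3-KO. The interaction of Ccnb1 was -1.57 (SE 0.98). Plk1, a kinase of the mitotic spindle whose response was 4.38, 4.39 and 1.66 in WT and 3.10, 1.63 and 1.36 under the smSocs3-KO label, had an interaction of -1.45 (SE 0.94). Both genes rose in WT at the adjusted threshold. Cdk1, the mitotic kinase itself, was not well above background in WT before challenge and was at least 23.5-fold higher at day 3 there. Bub1, a kinase of the spindle checkpoint, was at least 12.1-fold higher at day 3 in WT and at least 3.82-fold higher under the smSocs3-KO label, with no measured level before challenge in either.

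Members of the list that were without overlap were Anln and Cep55, which act at the very end of cell division. Anln, a scaffold of the contractile ring, had a response of 1.08, 1.28 and 1.16 on the WT arrays and 0.05, -0.09 and -0.47 on those labelled smSocs3-KO. WT replicate 4 was here like the other WT arrays, and the interaction was -1.34 (SE 0.37, limma unadjusted p = 0.00439, adjusted p = 0.751). Cep55, a protein of the midbody, had responses of 1.31, 1.68 and 0.73 in WT and 0.38, 0.34 and -0.54 under the smSocs3-KO label, an interaction of -1.18 (SE 0.40). Both rose in WT at the adjusted threshold. Of all 62 members, 54 (87.1%, against 3.59% of all genes) rose in WT and 5 (8.06%, against 1.71%) under the smSocs3-KO label. This contrast of counts rested on WT replicate 4, since without it 60 rose in WT and 50 under the smSocs3-KO label. With slide as a block, 58 rose in WT and 0 under the smSocs3-KO label, where 5 arrays were left on slide 2. Over all genes, those changed in either direction without WT replicate 4 numbered 3665 in WT and 1900 under the smSocs3-KO label. With slide as a block they numbered 2368 and 52.

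DNA replication genes went the same way with smaller values. Of 56 members, 52 were negative (92.9%), with a median interaction of -0.50 and a median response of 1.45 in WT and 0.93 under the smSocs3-KO label. The mean response of the members was 2.44, 2.14 and 0.63 in WT and 1.63, 0.96 and 1.09 under the smSocs3-KO label, so WT replicate 4 was the lowest of the 6. With all arrays, 3 of 56 members (5.36%) were lower without overlap, under the 12.1% of all genes. Without WT replicate 4 the median was -1.01 and 50 of 56 were, against 22.1% of all genes, and with slide as a block the median was -0.61. Mcm2 and Mcm5, subunits of the replicative helicase, had interactions of -0.56 (SE 0.64) and -0.80 (SE 0.91), within their error, and both rose in WT. Gins1, a partner of that helicase, had an interaction of -0.02 (SE 0.80). Dut, which keeps uracil out of DNA, responded by 1.63, 1.18 and 0.64 in WT and by 0.55, 0.44 and 0.15 under the smSocs3-KO label, without overlap, with an interaction of -0.77 (SE 0.32). Prim2, the large primase subunit, had the most negative interaction, -2.29 (SE 0.89), but its 2 probes differed (-2.29 and -0.39), and the brighter one was already higher by 2.68 under the smSocs3-KO label before challenge.

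**Figure D2:**
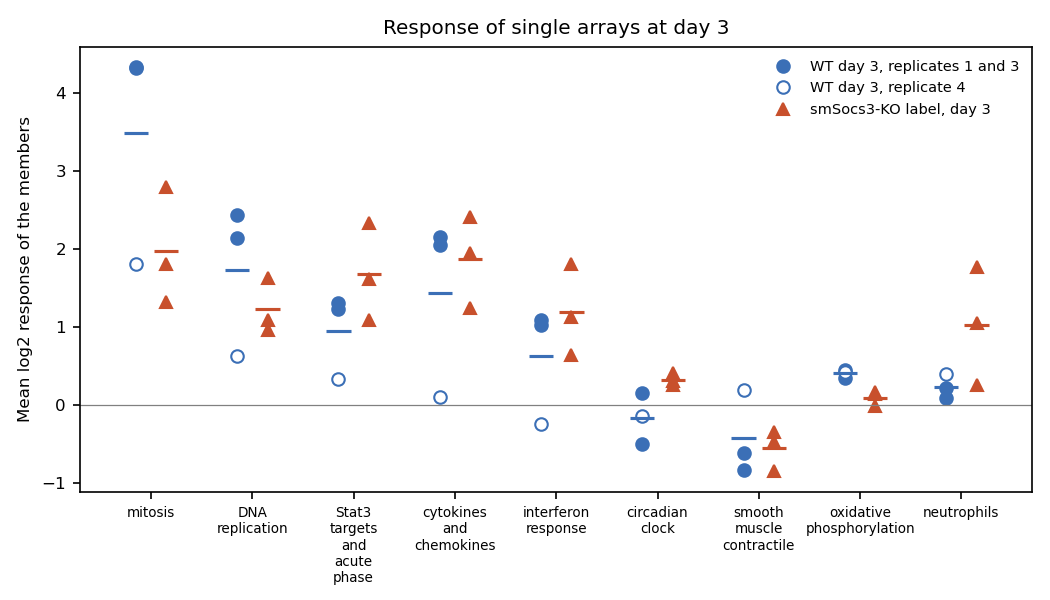
Mean log2 response of the members of 9 lists on each array at day 3 (y axis), relative to the mean of its own label before challenge. Circles are WT arrays, with replicate 4 open, triangles are arrays labelled smSocs3-KO, and bars are the mean of 3 arrays. WT replicate 4 is the lowest WT array for mitosis (1.81), the Stat3 list (0.34) and cytokines (0.11), while for the circadian clock and oxidative phosphorylation the arrays of the labels do not overlap.

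Stat3 target and acute phase genes were the function list with the highest median interaction. Of 51 members, 40 were positive (78.4%), with a median of 0.55 and a median response of 0.76 in WT and 1.32 under the smSocs3-KO label. At an unadjusted p under 0.05, 12 were positive (23.5% against 2.68% of all genes) and 0 negative. Responses without overlap were found in 14 (27.5% against 7.17%), all higher under the smSocs3-KO label. The mean response was 1.23, 1.30 and 0.34 in WT and 1.62, 1.09 and 2.33 under the smSocs3-KO label, which overlapped. Here the leading members did not rest on WT replicate 4. Without it the median was 0.53 and 11 members were positive and 2 negative at an unadjusted p under 0.05, and with slide as a block the median was 0.56, with 10 and 0. Over all genes, 2006 and 1623 were called at that p in either direction in these 2 settings.

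The metal-binding metallothioneins are acute phase genes of the Il6 response, and among the members named Mt1 was the clearest. Mt1 (probe at mm9 chromosome 8, from 96704165 to 96704224) had levels of 6.31, 6.11 and 6.45 before challenge and 6.23, 6.44 and 6.70 at day 3 in WT, and of 7.04, 6.98 and 7.08 before challenge and 8.65, 8.88 and 9.05 at day 3 under the smSocs3-KO label. WT arrays hardly moved, those labelled smSocs3-KO stood higher already before challenge, and at day 3 they lay well above every other array. The interaction was 1.66 (SE 0.24, limma unadjusted p = 3.14e-05), the same with slide as a block, and its adjusted p was 0.226, between 0.0865 and 0.988 over the 26 alternatives. Mt2 rose under both labels, by 1.26 in WT and 2.45 under the smSocs3-KO label, with an interaction of 1.19 (SE 0.35).

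Both chains of the Il6 receptor were among the members. Il6ra, which binds Il6 (probe at mm9 chromosome 3, from 89674054 to 89674113), had levels of 2.19, 2.18 and 1.94 before challenge and 1.88, 2.07 and 1.90 at day 3 in WT. Under the smSocs3-KO label it had 2.30, 1.55 and 1.86 before challenge and 2.95, 2.90 and 3.48 at day 3. Arrays at day 3 under the smSocs3-KO label were above all others. Il6ra rose there by 1.21 (limma adjusted p = 0.0282), its response in WT was -0.15, and the interaction was 1.36 (SE 0.31, limma unadjusted p = 0.00116, adjusted p = 0.607). Il6st, which encodes gp130, the chain that Socs3 protein binds, responded by -0.12, -0.49 and 0.04 in WT and by 0.77, 0.35 and 0.77 under the smSocs3-KO label, an interaction of 0.82 (SE 0.29). The labels did not overlap for either chain.

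The transcription factors Cebpb and Cebpd, which act with Stat3 on acute phase promoters, had interactions of 1.07 (SE 0.32) and 1.08 (SE 0.36). Cebpb responded by 0.17, 0.03 and 0.03 in WT and by 0.96, 0.87 and 1.60 under the smSocs3-KO label. Steap4, a metalloreductase induced by cytokines, responded by 0.89, 1.15 and 1.01 in WT and by 3.49, 2.88 and 3.47 under the smSocs3-KO label, and its interaction was 2.26 (SE 0.79), or 1.57 with slide as a block. It was well above background on 11 arrays, 2 of 3 under the smSocs3-KO label before challenge. Pim3, a kinase that promotes survival, had an interaction of 2.05 (SE 0.74), Lrg1, a secreted glycoprotein, of 2.09 (SE 0.89) and Cp, the copper carrier ceruloplasmin, of 1.0 (SE 0.26). Cp had another probe, whose interaction was 0.31. None of these 6 genes overlapped between the labels.

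Saa1 and Saa2, serum amyloid genes whose sequences are nearly the same and whose probes may share signal, had the highest interactions of the list. Saa1 responded by -0.40, -0.27 and -0.35 in WT and by 2.72, 0.47 and 4.23 under the smSocs3-KO label (interaction 2.81, SE 1.28). Saa2 was well above background on 4 arrays, 3 of them labelled smSocs3-KO at day 3, where it was at least 7.43-fold higher than in WT at day 3. Other classical acute phase genes did not share this pattern. Lcn2, an iron-trapping protein, responded by 3.28, 2.60 and 0.62 in WT and by 1.64, 0.59 and 3.28 under the smSocs3-KO label, with an interaction of -0.33 (SE 1.0). Its level was already 4.31 higher under the smSocs3-KO label before challenge and was 3.98 higher at day 3. Timp1, an inhibitor of matrix metalloproteinases, rose under both labels, by 3.46 and 3.21, with an interaction of -0.24 (SE 0.94). Saa3 was not well above background in WT before challenge and was well above it on all 3 arrays labelled smSocs3-KO before challenge, where it was at least 42.7-fold higher. Its interaction was therefore not measured.

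**Figure D3:**
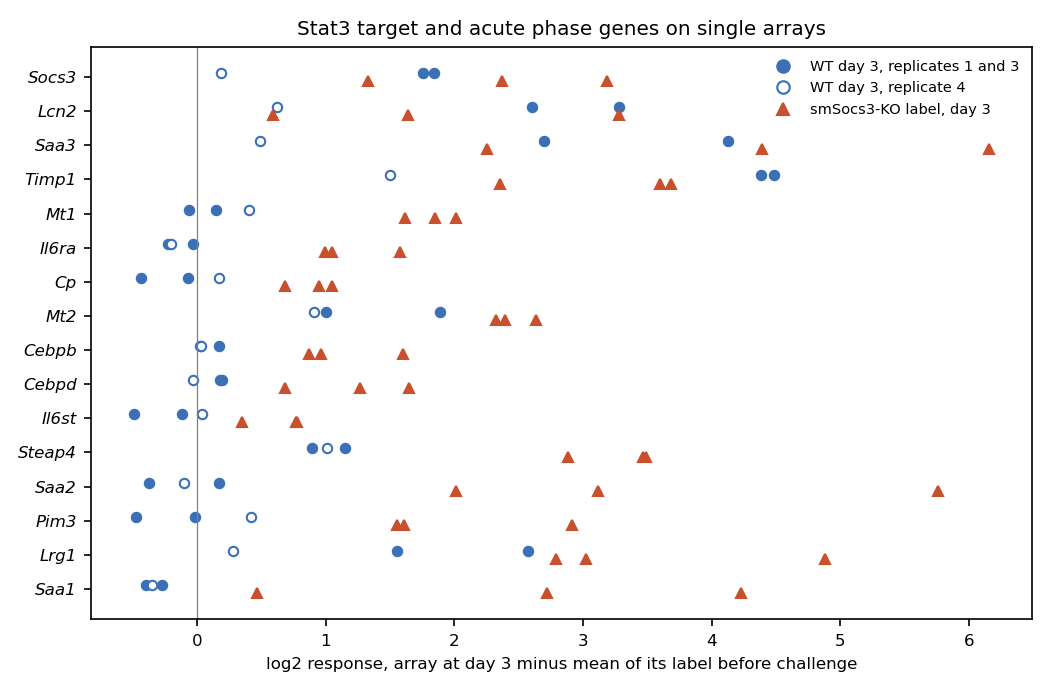
log2 response at day 3 (x axis) of 16 Stat3 target and acute phase genes on each array. Filled circles are WT replicates 1 and 3, open circles WT replicate 4 and triangles the 3 arrays labelled smSocs3-KO. Triangles lie to the right of all circles for Mt1, Il6ra, Cp, Mt2, Cebpb, Cebpd, Il6st, Steap4, Pim3, Lrg1 and Saa1, and are mixed with them for Socs3, Lcn2, Saa3 and Timp1. Saa2 and Saa3 were not well above background on every array.

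Cytokine and chemokine genes responded under both labels, and the sign of their interaction rested on a single array. Of 34 members, 25 were positive (73.5%), with a median of 0.41 and median responses of 1.11 in WT and 1.86 under the smSocs3-KO label. The mean response was 2.16, 2.05 and 0.11 in WT and 2.41, 1.25 and 1.95 under the smSocs3-KO label, so that WT replicates 1 and 3 were like the other label. Without WT replicate 4 the median was -0.26 and 14 of 34 were positive, and with slide as a block it was 0.35. Il6 itself was not well above background in WT before challenge and was at least 38.3-fold higher there at day 3. Under the smSocs3-KO label Il6 was measured before challenge, at -2.63, -1.35 and -1.86, and stood at 2.82, -0.40 and 3.61 at day 3. At that time WT had 2.65, 3.51 and -3.41, which overlapped. Ccl2, the chemokine that draws in monocytes, responded by 5.31, 6.12 and 0.94 in WT and 5.0, 2.27 and 4.66 under the smSocs3-KO label, with an interaction of -0.14 (SE 1.65). Il1b, a macrophage cytokine, had an interaction of 0.45 (SE 1.47), with 1 of 3 WT arrays before challenge and 2 of 3 at day 3 well above background. Il33, an alarmin of stromal cells, was the 1 member positive at an unadjusted p under 0.05 (2.94%, against 2.68% of all genes). It responded by 1.58, 0.77 and -0.04 in WT and by 2.28, 1.58 and 2.62 under the smSocs3-KO label (interaction 1.39, SE 0.55), with WT replicate 1 and smSocs3-KO replicate 3 nearly equal. Ccl19, a chemokine for lymphocytes and dendritic cells, had an interaction of 0.72 (SE 0.35).

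Interferon response genes had a positive interaction in 39 of 43 members (90.7%), with a median of 0.53. Their median response was 0.43 in WT and 0.96 under the smSocs3-KO label. WT replicate 4 was again low, with mean responses of 1.09, 1.03 and -0.25 in WT and 0.64, 1.80 and 1.13 under the smSocs3-KO label. Without it the median was 0.14 and with slide as a block 0.31. At an unadjusted p under 0.05, 2 members (4.65%) were positive, a share near the 2.68% of all genes. Those were Oas3, a sensor of viral RNA, which was well above background only on the 3 smSocs3-KO arrays at day 3 and at least 2.44-fold higher there than in WT at day 3, and Stat2, which carries the interferon signal, with an interaction of 0.68 (SE 0.29). Isg15, a ubiquitin-like protein, responded by 1.86, 1.75 and -0.48 in WT and 2.07, 4.02 and 2.77 under the smSocs3-KO label (interaction 1.91, SE 1.03). Ifit1, an inhibitor of viral translation, had an interaction of 1.28 (SE 0.94).

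Circadian clock genes were without overlap as a list. The mean response of 24 members was 0.16, -0.49 and -0.14 on the WT arrays and 0.26, 0.42 and 0.31 on those labelled smSocs3-KO. Of these, 19 were positive (79.2%), the median interaction was 0.50, and it was 0.38 without WT replicate 4 and 0.54 with slide as a block. At an unadjusted p under 0.05, 4 members (16.7%, against 2.68% of all genes) were positive and 0 negative (against 2.65%). Members higher without overlap numbered 6 (25%, against 7.17% of all genes). Per2, a repressor of the clock, had levels of -0.70, -1.82 and -1.15 before challenge and 0.30, -2.59 and -1.26 at day 3 in WT. Under the smSocs3-KO label the levels were -1.03, -1.78 and -1.86 before challenge and 0.89, 1.11 and -0.01 at day 3, an interaction of 2.18 (SE 0.87). WT replicate 1 at day 3 was above all WT arrays and overlapped in level with the other label. In response the labels did not overlap, but WT replicate 1 and smSocs3-KO replicate 5 were nearly equal.

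Other clock genes varied widely among arrays of the same group. Per1 responded by -0.11, -1.48 and -0.37 in WT and by 1.09, 0.97 and 1.08 under the smSocs3-KO label (interaction 1.70, SE 0.74), while its levels before challenge under that label ranged from 1.78 to 4.17. Tef, an output factor of the clock, had an interaction of 1.43 (SE 0.56). Arntl, the positive arm of the clock (Bmal1), ran opposite to the Per genes, with responses of -2.60, -0.07 and 0.10 in WT and -4.42, -2.27 and -0.40 under the smSocs3-KO label (interaction -1.51, SE 1.34). Npas2, a partner of Arntl that was well above background on 1 of 3 smSocs3-KO arrays at day 3, had an interaction of -1.83 (SE 1.19), and the output gene Dbp, at 2.34, -0.16 and 0.45 in WT and 3.40, 2.57 and -0.15 under the smSocs3-KO label, of 1.06 (SE 1.24). For Arntl, Npas2 and Dbp, WT replicate 1 lay with smSocs3-KO replicates 2 and 3, and smSocs3-KO replicate 5 lay with WT replicates 3 and 4.

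Immediate early genes, which cells switch on soon after a stimulus, had no common direction (22 of 34 positive, median 0.21). Arc, best known from synapses, was the exception in size. Its level before challenge was -1.43, -1.13 and -0.87 in WT and -2.56, -1.71 and -1.86 under the smSocs3-KO label. At day 3 it was 1.74, 0.52 and -0.66 in WT and -2.11, -3.73 and -2.98 under the smSocs3-KO label, so that all WT arrays were higher, and all those labelled smSocs3-KO lower, than the mean before challenge. The interaction of Arc was -2.57 (SE 0.78) and -2.83 with slide as a block. Dusp2, a phosphatase of MAP kinases, went the other way (1.58, SE 0.65). Fos responded by 0.69, 0.36 and -0.85 in WT and by 2.01, -0.28 and 3.84 under the smSocs3-KO label (interaction 1.79, SE 1.15).

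Smooth muscle contractile genes, the labelled tissue's defining set, were measured with all 7 defining markers well above background on 12 arrays. They had no common direction. Of 44 members, 31 were negative with a median of -0.17, and without WT replicate 4 30 of 44 were positive with a median of 0.11. The mean response was -0.61, -0.83 and 0.19 in WT and -0.47, -0.34 and -0.85 under the smSocs3-KO label. Acta2, smooth muscle actin, responded by -0.32, -0.08 and -0.29 in WT and by -0.48, -0.41 and -0.59 under the smSocs3-KO label, a narrow gap without overlap. The interaction was -0.27 (SE 0.27), -0.04 with slide as a block, and slightly positive under quantile normalization (0.013). Tagln, which encodes SM22, had one of -0.30 (SE 0.30) that was -0.03 with slide as a block. Myh11, smooth muscle myosin, had -0.19 (SE 0.46), which turned to 0.03 with slide as a block. Casq2, a calcium store protein, responded by 1.28, 0.09 and 1.04 in WT and by -0.02, -1.53 and -0.69 under the smSocs3-KO label (interaction -1.55, SE 0.57). Adra1d, an adrenergic receptor of arteries, responded by -1.19, -2.08 and -0.65 in WT and by 0.23, 1.17 and -0.36 under the smSocs3-KO label (interaction 1.65, SE 0.63), and its other probe had an interaction of 0.78.

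Collagen chains had a median interaction of -0.18, with 21 of 34 negative, and one of -0.10 with slide as a block. The members that were negative at an unadjusted p under 0.05 were 3 chains (8.82%, against 2.65% of all genes) of basement membranes and their margins. Col4a1, the main chain of the basement membrane, responded by 0.49, 0.67 and 0.86 in WT and by 0.21, -0.32 and 0.03 under the smSocs3-KO label (interaction -0.70, SE 0.25). Col18a1, the parent of endostatin, had an interaction of -1.17 (SE 0.42, other probe -0.59), with smSocs3-KO responses of -0.08, -0.52 and -1.55. Col15a1 had -2.40 (SE 1.02), with 3 probes between -2.40 and -2.29. All 3 genes were without overlap, but for Col15a1 WT replicate 4 (-0.015) and smSocs3-KO replicate 2 (-0.076) were nearly equal. Of the list, 14.7% were lower without overlap, against 12.1% of all genes. Col28a1, a minor chain, was the 1 member positive at an unadjusted p under 0.05 (2.94%, against 2.68% of all genes). It was well above background on the 3 smSocs3-KO arrays at day 3 alone, where it was at least 1.1-fold higher than in WT at day 3. Col3a1, a major fibril chain, rose in WT and had an interaction of -0.25 (SE 0.26).

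Matrix assembly and remodelling genes had a median interaction of -0.09 over 76 members, near that of all genes. Responses without overlap were higher in 9.21% and lower in 9.21%, against 7.17% and 12.1% of all genes. At an unadjusted p under 0.05, 3 members were positive (3.95%, against 2.68% of all genes) and 5 negative (6.58%, against 2.65%). The negative ones included enzymes and a chaperone that make collagen. P4ha1, which hydroxylates proline in collagen, had levels of 1.95, 1.79 and 2.17 before challenge and 2.29, 2.32 and 2.90 at day 3 in WT, and of 2.46, 2.19 and 2.27 and then 1.54, 1.61 and 0.58 under the smSocs3-KO label. The WT arrays were all higher at day 3 and those labelled smSocs3-KO all lower, with an interaction of -1.60 (SE 0.39, limma unadjusted p = 0.0019, adjusted p = 0.704). Leprel1, another prolyl hydroxylase of collagen, had -2.06 (SE 0.57), and Serpinh1, the collagen chaperone Hsp47, -1.02 (SE 0.35). Of the matricellular proteins, Postn responded by 1.48, 1.08 and 1.36 in WT and by 0.87, 0.25 and -0.66 under the smSocs3-KO label (interaction -1.15, SE 0.45). Tnc had -1.86 (SE 0.95), with smSocs3-KO replicate 2, at 1.97, above the lowest WT array. Eln, the elastin gene, had -0.57 (SE 0.51). Comp, a matrix protein of cartilage and tendon, and Thbs3, its relative, were positive, with 1.70 (SE 0.58) and 0.76 (SE 0.22). The list had no common direction, since its median was 0.03 under quantile normalization.

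Genes of TGF-β signalling had a median of -0.03 over 37 members. Bmp2, a BMP ligand, had an interaction of -0.59 (SE 0.25) and the receptor Tgfbr2 of 0.61 (SE 0.27), and both genes were without overlap.

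Genes of heat shock and protein folding were negative in 23 of 33 members (69.7%), with a median of -0.20. At the adjusted threshold 10 of them (30.3%, against 3.59% of all genes) rose in WT and 1 (3.03%, against 1.71%) under the smSocs3-KO label. Without WT replicate 4 these were 10 and 3, and with slide as a block 12 and 0. Over all genes, changes in either direction numbered 3665 and 1900 in the first setting and 2368 and 52 in the second. Before challenge, the median level of the members was already 0.15 higher under the smSocs3-KO label, and at day 3 it was 0.05 lower. Hsp90b1 (Grp94), a chaperone of the endoplasmic reticulum, responded by 0.83, 0.84 and 0.75 in WT and by 0.05, -0.08 and -0.12 under the smSocs3-KO label, far apart, with an interaction of -0.86 (SE 0.23, limma unadjusted p = 0.0038, adjusted p = 0.734). Calr, which encodes the lectin chaperone calreticulin, had -0.58 (SE 0.23) and Pdia3, a disulfide isomerase, -0.59 (SE 0.24). These were the only other members negative at an unadjusted p under 0.05 (9.09% with Hsp90b1, against 2.65% of all genes). Hspa5 (BiP) had -0.59 (SE 0.34). Hspa1a, the inducible Hsp70 of the cytosol, went the other way, with responses of -1.59, -3.23 and -1.85 in WT and -1.76, -0.61 and -0.01 under the smSocs3-KO label (interaction 1.43, SE 0.89), which overlapped.

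Oxidative phosphorylation genes had a small interaction that nearly all members shared. Of 70, 69 were negative (98.6%), with a median of -0.28 and median responses of 0.40 in WT and 0.09 under the smSocs3-KO label. The mean response was 0.45, 0.35 and 0.43 in WT and -0.01, 0.14 and 0.16 under the smSocs3-KO label, with no overlap and with WT replicate 4 like the other WT arrays. Before challenge, the median level of the members was already 0.18 higher under the smSocs3-KO label, and at day 3 it was 0.11 lower. Members lower without overlap numbered 32 (45.7% against 12.1% of all genes), and 9 (12.9% against 2.65%) were negative at an unadjusted p under 0.05. Atp5g1, a subunit of the ATP synthase ring, responded by 1.06, 0.78 and 0.69 in WT and by 0.30, 0.02 and 0.28 under the smSocs3-KO label (interaction -0.64, SE 0.23), although its other probe had -0.10. Cox7a2, of cytochrome oxidase, had -0.56 (SE 0.21) and Ndufa4, also of the respiratory chain, -0.55 (SE 0.23). The size of the median interaction moved with the scaling. It was -0.14 under quantile normalization and -0.39 with slide as a block.

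Cytosolic ribosomal protein genes were negative in all 71 members, with a median of -0.24, but this value was all but lost under another scaling. Under quantile normalization the median was -0.01 and 34 members were positive. The mean response was 0.42, 0.34 and 0.10 in WT and -0.05, 0.04 and 0.15 under the smSocs3-KO label. Before challenge, the median level of the members was already 0.18 higher under the smSocs3-KO label, and at day 3 it was 0.06 lower. Rplp0, of the ribosomal stalk, had an interaction of -0.40 (SE 0.25), Rplp1, its partner, of -0.47 (SE 0.21) and Rpl10 of -0.41 (SE 0.18). Lipid synthesis genes were negative in 26 of 33 members, with a median of -0.27. Mvk, a kinase of the cholesterol pathway, responded by 1.05, 1.04 and 0.77 in WT and by 0.39, 0.24 and 0.15 under the smSocs3-KO label (interaction -0.69, SE 0.26), and Sqle, a later enzyme of it, had -0.48 (SE 0.48). Srebf2, the factor that drives this pathway, was positive at 1.13 (SE 0.36), and its other probe had 0.48.

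Genes of glycolysis and hypoxia had a median of -0.15 over 34 members and no common direction under quantile normalization (0.02). Pfkfb3, which makes the activator of glycolysis, responded by 0.14, 0.14 and 0.10 in WT and by 1.15, 1.27 and 1.91 under the smSocs3-KO label. Its interaction was 1.31 (SE 0.31, limma unadjusted p = 0.0016, adjusted p = 0.681), and its other probe had 0.41. Hk2, hexokinase, had 0.80 (SE 0.39), and Adm, the vasodilator adrenomedullin, 1.21 (SE 0.54). Gapdh, a glycolytic enzyme often used as a reference gene, was negative, with -0.54 (SE 0.22) and 8 probes between -0.66 and -0.42.

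The lists of cell type markers held no gene with an interaction past the adjusted threshold, as no gene at all passed it. Macrophage genes responded by 1.61, 1.25 and 0.20 in WT and by 1.59, 1.34 and 1.67 under the smSocs3-KO label, with a median interaction of 0.40 over 32 members that was -0.05 without WT replicate 4 and 0.18 with slide as a block. Their level (mean over the list) already differed before challenge, from 0.72 to 0.88 in WT and from 1.06 to 1.64 under the smSocs3-KO label, and at day 3 it ranged from 1.02 to 2.43 and from 2.68 to 3.01. At the adjusted threshold 11 of 32 (34.4%, against 1.71% of all genes) rose under the smSocs3-KO label and 3 (9.38%, against 3.59%) in WT. This contrast rested on WT replicate 4 and on the slides, since without that array 22 and 20 rose, and with slide as a block 1 and 8. Over all genes, changes in either direction without that array numbered 1900 under the smSocs3-KO label and 3665 in WT. With slide as a block they numbered 52 and 2368. The 2 members of lowest unadjusted p were surface receptors, while 9 of the 32 members were negative. Cd163, the haemoglobin scavenger receptor, responded by -0.13, -0.24 and 0.00 in WT and by 0.90, 1.45 and 2.58 under the smSocs3-KO label (interaction 1.77, SE 0.49). Clec10a, a lectin of these cells, responded by -1.09, -0.57 and -0.81 in WT and by 0.59, 1.12 and 2.57 under the smSocs3-KO label (interaction 2.25, SE 0.62).

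Neutrophil genes, 15 of 25 listed measured and with the receptor gene Cxcr2 not among them, had a median of 0.70. Their mean response was 0.22, 0.09 and 0.40 in WT and 1.77, 0.26 and 1.05 under the smSocs3-KO label. S100a8, a calgranulin of neutrophil cytosol, responded by -1.11, -0.75 and 2.22 in WT and by 6.01, 0.92 and 3.36 under the smSocs3-KO label (interaction 3.31, SE 1.70). The labels overlapped for it, as WT replicate 4 was the highest WT array and above smSocs3-KO replicate 3. S100a9, its partner, had 3.05 (SE 2.14), and Ly6g, the neutrophil surface marker, had 0.70 (SE 0.37) and rose under the smSocs3-KO label. Fpr2, a receptor for bacterial peptides, was not well above background in WT before challenge and was at least 1.15-fold higher there at day 3. Without WT replicate 4 the median of the list was 0.16, and with slide as a block 0.20.

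Lymphocyte genes had mean responses of -1.03, -0.89 and -1.33 in WT and -0.78, 0.15 and -0.84 under the smSocs3-KO label and a median interaction of 0.46. The defining markers Cd8a and Rag1 had no probe well above background in any whole group. Cd3d, a chain of the T cell receptor complex, fell in WT, where 1 of 3 arrays at day 3 was well above background, and had an interaction of 2.05 (SE 0.71).

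The other tissues that can come with an aorta varied within groups. The fat cell list had a median interaction of 0.46, with mean responses of -0.92, 0.79 and 0.14 in WT and -0.26, 0.90 and 0.70 under the smSocs3-KO label, and Adipoq, its defining adipokine, had 1.47 (SE 1.07). The striated muscle list had -0.24, with Myh6, cardiac myosin, at -2.09 (SE 2.59) and Acta1, skeletal actin, at -0.82 (SE 0.50). The mesothelium and epithelium list had 0.56 and was already 1.58 higher under the smSocs3-KO label before challenge (median over 19 members), with Msln at 0.61 (SE 0.98) and Dmkn at -1.20 (SE 0.96). The endothelium list was near all genes at 0.05, in which Kdr, a VEGF receptor, had -0.69 (SE 0.42), Flt1, another, had 0.56 (SE 0.21) and Pecam1 had 0.81 (SE 0.57). Nerve and glia had 0.19, adrenal cortex and kidney had 0.11 over the 9 of 20 genes measured, and red blood cells had -0.54, with Hbb-b1 at -0.90 (SE 1.11). The part of these cells in the interaction of the functions was not tested.

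Among single genes, the rule for naming (past the paper's threshold, with a gene symbol, well above background on all 12 arrays and without overlap) left 14 positive and 7 negative genes, of which the 10 most positive and all 7 negative are given. Their values chose them and are a description. Tnxb, the matrix protein tenascin X, was the most positive. Its level was -0.15, -0.12 and -0.37 before challenge and -2.82, -1.55 and -0.73 at day 3 in WT, and 0.17, -0.56 and 2.06 and then 2.16, 2.71 and 3.42 under the smSocs3-KO label. The interaction of Tnxb was 3.70 (SE 0.93), and smSocs3-KO replicate 4 before challenge came close to the lowest array at day 3 under that label. Next came Hif3a (2.53, SE 0.56), a hypoxia-inducible factor subunit whose other probe had 0.39, Fam13a (2.52, SE 0.49), and Mxd1 (2.51, SE 0.68), an antagonist of Myc whose other probe had 0.87. Gpnmb, a glycoprotein of macrophages, had 2.46 (SE 0.71), Endou 2.42 (SE 0.67), Aldh1a3, which makes retinoic acid, 2.36 (SE 0.73), and Apod, a lipid carrier, 2.31 (SE 0.57, other probe 0.76). Pip5k1a, a lipid kinase, had 2.31 (SE 0.42), but its 3 probes ranged from -0.16 to 2.31, and Slc10a6, a transporter of steroid sulfates, had 2.27 (SE 0.67). Of these 10 genes, 6 rose under the smSocs3-KO label (against 1.71% of all genes) at the adjusted threshold. In WT 0 changed, where 3.59% of all genes rose and 1.09% fell. As the genes were chosen by their interaction, these counts follow in part from the choice.

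The most negative was Diras2, a small GTPase known from brain, with responses of 0.86, 1.47 and 0.48 in WT and -1.30, -1.90 and -2.47 under the smSocs3-KO label. Its interaction was -2.83 (SE 0.45, limma unadjusted p = 6.5e-05, adjusted p = 0.29, between 0.0999 and 0.687 over the 26 alternatives). Spon2, a matrix protein that aids macrophages and neutrophils, had -2.76 (SE 0.79). Its level was 2.16 higher under the smSocs3-KO label before challenge and 0.60 lower at day 3, when the levels of the labels overlapped. After Arc, given above, came Lyzl4 (-2.09, SE 0.50), a lysozyme-like gene, Leprel1 (-2.06), Plcxd1 (-2.04, SE 0.41) and Stac (-2.02, SE 0.56), an adaptor of calcium channels. Of the 7, 3 fell under the smSocs3-KO label (against 0.734% of all genes) and 0 changed in WT at the adjusted threshold, counts that again follow in part from the choice.

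**Figure D4:**
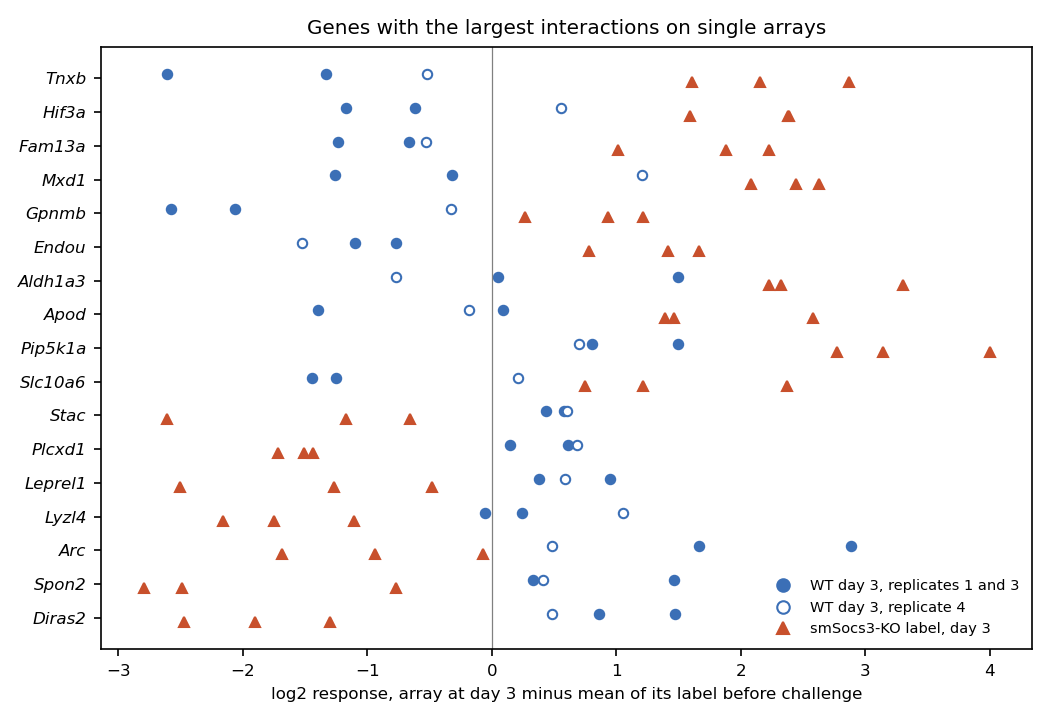
log2 response at day 3 (x axis) on each array for the 10 most positive and 7 negative interactions among genes past the paper's threshold that were well above background on all arrays and did not overlap. Filled circles are WT replicates 1 and 3, open circles WT replicate 4 and triangles the arrays labelled smSocs3-KO. The genes were chosen for their separation, which ranges from an interaction of -2.83 (Diras2) to 3.70 (Tnxb).

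Set side by side, the functions differed in how far their interaction rested on the arrays and the scaling. Over 26 alternatives, the median stayed on 1 side of 0 in 9 of the 16 function lists. Not all of these are separate checks. Robust, trended and no moderation alter errors and p-values alone, so no median or sign could change under them. Slide as a block nearly repeats leaving out smSocs3-KO replicate 1 before challenge, and the authors' table nearly repeats quantile normalization. Mitosis ranged from -2.61 to -1.12, DNA replication from -1.15 to -0.19, Stat3 targets from 0.09 to 0.88, interferon response from 0.14 to 0.82, circadian clock from 0.28 to 0.87 and oxidative phosphorylation from -0.39 to -0.14. The others were heat shock and protein folding, lipid synthesis and ribosomal proteins, the last with a highest value of -0.01. Cytokines, immediate early genes, contractile genes, collagens, matrix, TGF-β and glycolysis changed sign in at least 1 alternative.

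**Figure D5:**
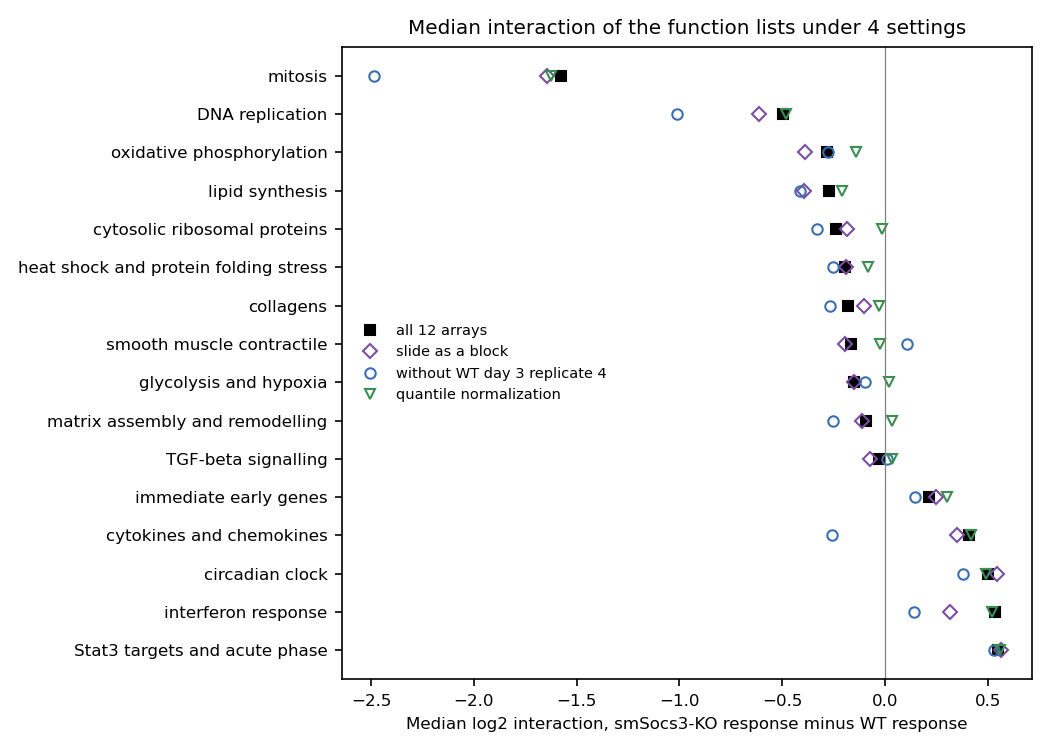
Median log2 interaction (x axis, smSocs3-KO response minus WT response) of the 16 function lists with all 12 arrays, with slide as a block, without WT day 3 replicate 4 and with quantile normalization. Points of mitosis lie between -2.49 and -1.57, those of the Stat3 list lie together near 0.55, and those of cytokines (0.41 and -0.26 without WT replicate 4) and contractile genes (-0.17 and 0.11) lie on both sides of 0.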

How the data were processed

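RNA of whole aortas was hybridised by the authors to Agilent one-colour mouse arrays of 62976 spots. Per the file headers, spots were extracted with Feature Extraction 10.7.1.1, and the deposited scanner files give the processed signal intensity of each spot, already background-subtracted by that program. The authors also deposited a table of quantile-normalized intensity values of the same arrays, which ranked the probes as the scanner files did (lowest Spearman correlation of an array 0.99997) and served as an alternative. The authors' own group comparisons were not used.

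Here the deposited intensity was log2 transformed and the 75th percentile of each array over the probes that are not controls was subtracted. Spots of a probe were averaged. Of 55681 probes, 32283 passed the background limit of the scanner software on every array of 1 or more groups, and the brightest of these stood for its gene by the gene name in the array files, which left 22761 genes, 4 of them with a missing value. Group means of all 4 groups (3 arrays each) were fitted in 1 model with limma 3.58.1 in R 4.3.3 (with data.table version 1.17.8). The interaction was taken as a contrast, standard errors were moderated, and p-values were adjusted by the Benjamini-Hochberg method over all genes. The response of an array at day 3 is its value less the mean of the 3 arrays before challenge of its own label, and the labels overlap unless all 3 responses of one lie above all 3 of the other. With 3 arrays against 3, the number of arrays limits the precision. The labels do not say whether arrays came from separate mice, so the p-values measure the spread between arrays, which may be technical. A probe not well above background in a group has only a bound there, given as "at least", from the mean of the brighter group against, per array, the higher of the dim probe's signal and the lowest signal well above background.

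The gene lists and the members named were chosen with earlier results of these data known. Named are Socs3, the largest interactions by the rule given in the text, up to 4 key genes of each list and the 2 members of lowest p, with a few more where a count of 5 or fewer called for it. Alternatives were normexp background correction (offset 50), quantile normalization, median centring, the deposited quantile values, no filter and a filter for all arrays, the mean of a gene's probes, robust, trended or no moderation, slide as a fixed or random block, a block for the replicate number, and leaving out each array. Applying them to the responses of each label, leaving out an array for the overlap, and the glucocorticoid list were chosen after seeing the data. Values of some list members are not reported here. The array files place the probes on mm9. No genome of that build was used here, so exon and UTR positions are not given. Promoter sequences are from RefSeq (GRCm38.p6).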

Additional observations from a re-analysis of the deposited data

Results flagged for a closer look

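In 20 of the genes named, the 3 arrays at day 3 of one label were all higher, and those of the other all lower, than the mean of their own label before challenge. Whether the labels differ was not tested by this pattern, and the adjusted p of the interaction was above the threshold in each. Higher in WT and lower under the smSocs3-KO label were Diras2 (interaction -2.83), Spon2 (-2.76), Arc (-2.57), Leprel1 (-2.06), Plcxd1 (-2.04), Stac (-2.02), P4ha1 (-1.60), Casq2 (-1.55), Col18a1 (-1.17) and Kdr (-0.69). Lower in WT and higher under the smSocs3-KO label were Thbs3 (0.76), Il6ra (1.36), Dusp2 (1.58), Per1 (1.70), Clec10a (2.25), Endou (2.42), Gpnmb (2.46), Fam13a (2.52), Saa1 (2.81) and Tnxb (3.70). Over all genes tested, 787 (3.46%) had responses of opposite direction in this sense. Some of these genes were named because their arrays did not overlap, so their number among those named is no measure of how common the pattern is.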

How the results depend on the processing

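Of 121 genes named, 109 kept the sign of their interaction under the 26 alternatives they could be fitted in, and none passed the adjusted threshold in any. The choices of moderation could not turn a sign, as they leave the interaction itself unchanged. Normexp background correction gave 24 genes at the paper's threshold (13 with quantile normalization) in place of 70, no filter on dim probes 118, a filter for all arrays 26 and no moderation 36. With normexp, Lcn2 was 0.16, and with normexp and quantile normalization Myh11 was 0.055. Myh11 was 0.033 with slide as a block. Acta2 and Timp1 were 0.013 and 0.041 under quantile normalization and 0.0071 and 0.038 in the authors' table. The medians of matrix, glycolysis, oxidative phosphorylation and ribosomal genes were 0.044, 0.041, -0.14 and -0.027 with normexp and quantile normalization, 0.035, 0.019, -0.14 and -0.014 with quantile normalization, and 0.035, 0.020, -0.14 and -0.013 in the authors' table. With slide as a block, oxidative phosphorylation was -0.39. Genes changed in WT (1065) numbered 615 with quantile normalization, 614 in the authors' table, 10 with no filter, 1828 with an intensity trend, 610 with no moderation, 2368 with slide as a block and 2127 with a random slide (correlation 0.386). Genes changed under the smSocs3-KO label (557) numbered 173 with no filter, 844 with a trend, 30 with no moderation, 52 with slide as a block and 319 with a random slide. The cause of these shifts was not tested.

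On leaving out single arrays, genes with an interaction numbered 0 to 10, those at an unadjusted p under 0.05 numbered 828 to 2006 and those at the paper's threshold 50 to 221, and changed genes numbered 0 to 3665 in WT and 42 to 1900 under the smSocs3-KO label. Mitosis ranged from -2.49 to -1.12, circadian clock from 0.28 to 0.78, collagens from -0.27 to 0.0034, glycolysis from -0.15 to -0.032, matrix from -0.25 to -0.020 and oxidative phosphorylation from -0.39 to -0.17. The sign turned for Ccl2 (-1.74 to 0.85), Gins1 (-0.81 to 0.49), Hbb-b1 (-1.80 to 0.15), Il1b (-0.77 to 1.25), Lcn2 (-1.10 to 0.29), Msln (-0.030 to 1.39), Myh11 (-0.46 to 0.18), Timp1 (-1.22 to 0.27) and Egr1 (-0.98 to 0.026).

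The main model did not pair arrays by replicate number, and whether the numbers mark pairs was not settled. In their deviations, 4 of 11 pairs of one number correlated above 0.1 (range -0.40 to 0.46, median 0.073). Of pairs of different numbers, 8 of 43 did (range -0.44 to 0.48, median -0.0056). With a replicate block, changed genes numbered 0 in WT and 2 under the smSocs3-KO label, the paper's threshold gave 120, and the medians were -2.61 for mitosis, -1.15 for replication, 0.095 for the Stat3 list, -0.37 for cytokines, -0.23 for immediate early genes, 0.87 for the clock, 0.37 for contractile genes and -0.24 for matrix. Socs3 was -0.12, Fos -0.76, Il1b -0.85 and Myh11 0.41.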

Other observations

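Among the genes with high interactions were several that glucocorticoids are known to induce. A list of 25 such genes was drawn up after the values of single genes had been seen, so its counts are a description with no test. Of its 24 measured members, 21 were positive (87.5%, against 44.0% of all genes), with a median interaction of 0.79. Their median response was -0.15 in WT and 0.55 under the smSocs3-KO label. Their mean response was -0.32, -0.39 and 0.26 on WT replicates 1, 3 and 4 and 0.31, 0.81 and 0.92 on smSocs3-KO replicates 2, 3 and 5, without overlap. Fkbp5, a cochaperone of the glucocorticoid receptor, responded by 0.64, 0.49 and 1.13 in WT and by 1.70, 2.74 and 3.08 under the smSocs3-KO label (interaction 1.76). Tsc22d3 (Gilz), which encodes an anti-inflammatory protein, responded by 0.33, -0.75 and 0.34 in WT and by 0.84, 2.37 and 1.62 under the smSocs3-KO label (interaction 1.64). Ddit4, an inhibitor of mTORC1, responded by 0.76, 0.42 and 0.52 in WT and by 2.20, 3.13 and 3.90 under the smSocs3-KO label (interaction 2.51). Fkbp5 and Ddit4 rose under the smSocs3-KO label at the adjusted threshold (8.33% of members, against 1.71% of all genes), and 0 members did in WT (against 3.59%). The median of the list was 0.98 with slide as a block and 0.84 without WT day 3 replicate 4, and it lay between 0.57 and 0.98 over the 26 alternatives. Per1 and the metallothioneins, described above, are also known to respond to these hormones.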
